A study of Mus musculus with 2 samples.

Results

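Genomic imprinting silences a gene on the chromosome inherited from one parent, so that RNA is made from the maternal or the paternal copy alone. The choice is written as DNA methylation in the egg or the sperm at control regions, and each control region acts on a cluster of neighbouring genes. The brain expresses many imprinted genes, and several of them switch copy, or lose imprinting, in neurons. A list of 36 imprinted genes known from brain was followed here, coding and noncoding, chosen by name and grouped by cluster and by the copy that is known to be expressed. Of these, 35 matched a row in both deposited gene tables, out of 43346 Ensembl gene rows in each. Peg13 is not analysed here.

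The data were 2 RNA-seq libraries, replicate 1 and replicate 2, each from an area of layer 5 of the cerebral cortex cut out by laser capture. Both areas came from wild-type male C57Bl6 mouse tissue (strain B6NCrl in the source name) aged 8 months. Each area was 8000 square microns, with a starting quantity of 50 cells in the labels. The labels call the libraries biological replicates but give both the same donor, so they stand as areas of 1 animal and their SD is the spread between areas. No treatment, genotype or other tissue was compared, and no test across animals was possible. The values carry no information on which parental copy an RNA came from. "Paternal" and "maternal" below are therefore background labels: 19 members were labelled as paternally expressed, 10 as maternally expressed and 6 as mixed. Mixed was used where the copy differs between transcripts or tissues or where a bias is partial. Because some imprinted genes switch copy or lose imprinting in neurons, a paternal or maternal label may not hold in layer 5.

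Replicate 1 held 26059117 expected counts and replicate 2 held 28276843, of which spike-in RNA took 7.19% and 7.94%. An expected count is an estimated number of reads, and TPM is that number scaled for transcript length and library total. All 10 layer 5 markers and all 12 pan-neuronal markers reached 1 TPM in both areas. That level does not single out layer 5, since markers of other cells reached it too. The areas were not alike in their other cells. Summed microglial markers gave 361 TPM in replicate 1, against 121 TPM in replicate 2, and all 12 reached 1 TPM in both. Summed oligodendrocyte markers gave 609 TPM in replicate 1 and 1196 TPM in replicate 2, again with 12 of 12 at 1 TPM. Summed mural markers gave 24.2 and 7.13 TPM, with 2 of 9 at 1 TPM in both. Summed endothelial markers gave 134.5 TPM in replicate 1 and 77.1 TPM in replicate 2. Of 7 endothelial markers with a mean of 1 TPM, 4 were higher in replicate 1 and 3 in replicate 2. In such tissue pieces, fewer cells of a type and less RNA per cell cannot be told apart.

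Most of the imprinted genes were expressed, and several were among the abundant transcripts of these neuron-rich areas. At 1 TPM or more in both areas were 26 of the 35 matched members. Kcnk9 and Igf2 reached that level in replicate 1 alone. Dlk1, Rtl1, Magel2, Cdkn1c, H19, Peg10 and Asb4 reached it in neither area. Among the 29 protein-coding members 21 were at 1 TPM in both areas, where 51.4% of all protein-coding genes were. Among the 6 noncoding members 5 were, where 9.34% of all long noncoding genes were. Together the members held 0.719% of the counts in replicate 1 and 0.761% in replicate 2. The median member stood at 12.5 TPM in replicate 1, against 14.7 TPM in replicate 2.

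**Figure D1:**
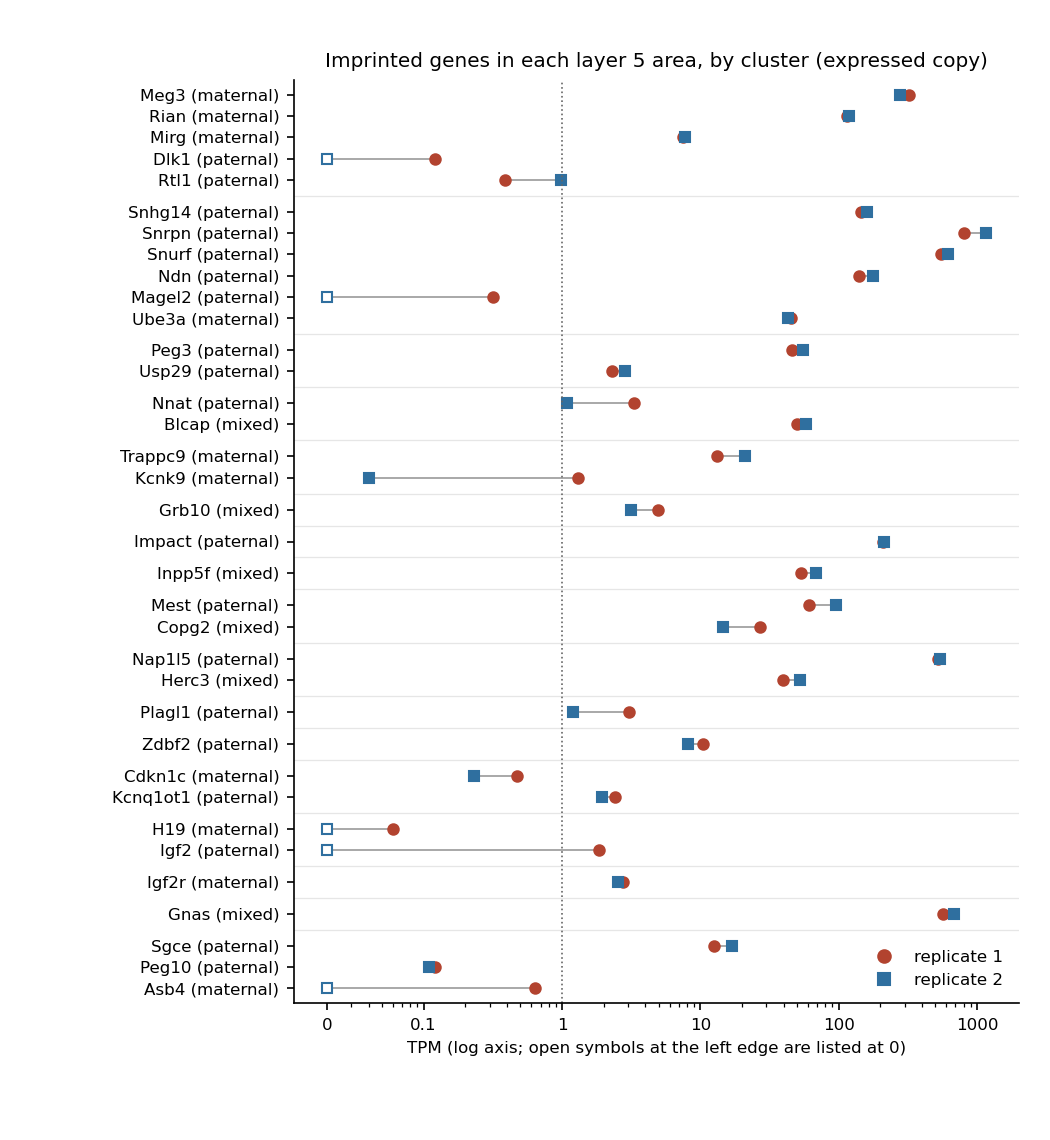
TPM of each of the 35 imprinted genes (log axis) in replicate 1 (circles) and replicate 2 (squares), ordered by cluster, with the known expressed copy in brackets; open symbols at the left edge are listed at 0. Levels run from Snrpn at 808 and 1155 TPM to H19 at 0.06 and 0 TPM, and 26 genes lie right of the dotted line at 1 TPM in both areas.

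Medians differed between the classes of labelled copy, with mixed members highest, but the levels overlapped. No test between the classes was run. The 19 paternally expressed members had medians of 10.4 TPM in replicate 1 and 8.11 TPM in replicate 2, with 14 at 1 TPM in both areas. The 10 maternally expressed members had medians of 5.15 and 5.13 TPM, with 6 at 1 TPM in both. All 6 mixed members were at 1 TPM in both, with medians of 45.0 and 55.4 TPM. The mixed class began at 4.96 TPM in replicate 1 and 3.14 TPM in replicate 2, both for Grb10, and the maternal class reached 325 and 278 TPM with Meg3, so the classes overlapped widely.

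The Prader-Willi/Angelman cluster on chromosome 7 held the most abundant member. A start region there drives Snrpn, Snurf and the long noncoding Snhg14 from the paternal copy, and in neurons Snhg14 is known to run on into Ube3a from the opposite side and to silence its paternal copy. Snrpn (ENSMUSG00000102252.1, chr7:59982495-60140219, minus strand, GRCm38), which encodes the splicing protein SmN, had 808 TPM in replicate 1 and 1155 TPM in replicate 2. It ranked 82 among 42425 named nuclear genes. Snurf, a short upstream reading frame of the same transcript, had 548 and 614 TPM. All 216 of its annotated exonic bases lie inside Snrpn exons, so the split of reads between the rows is uncertain, and its row has an effective length of 117 bases.

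The other genes of that cluster spanned the range. Ndn, which encodes the MAGE family protein necdin, had 142 TPM in replicate 1 and 176 TPM in replicate 2. Ube3a, the ubiquitin ligase whose maternal copy is lost in human Angelman syndrome, had 45.0 and 43.0 TPM. Magel2, another MAGE gene a short distance from Ndn, had 0.32 TPM from 31 counts in replicate 1 and 0 counts in replicate 2. At this depth, 0 counts leave room for at most 0.124 CPM in replicate 1 and 0.115 CPM in replicate 2, where CPM is counts scaled to the library total and counting error alone is considered. Magel2 was thus the lowest of the cluster in each area, while its neighbour Ndn stood among the abundant members.

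The Snrpn counts fell almost wholly on the transcript of the downstream start. That start gave 807 of 808 TPM in replicate 1 and 1155 TPM in replicate 2, which was 99.88% and 99.96% of the gene. The upstream start, 135108 bases away, gave 1.01 TPM in replicate 1 and 0.48 TPM in replicate 2. Both start regions are shown, since the contrast between them carries the Snrpn level: 300 bases each, 5′ to 3′ on the minus strand, from RefSeq on GRCm38.p6, with CG pairs in capitals because CG methylation carries the imprint.
Snrpn downstream start, chr7:60005150-60005449: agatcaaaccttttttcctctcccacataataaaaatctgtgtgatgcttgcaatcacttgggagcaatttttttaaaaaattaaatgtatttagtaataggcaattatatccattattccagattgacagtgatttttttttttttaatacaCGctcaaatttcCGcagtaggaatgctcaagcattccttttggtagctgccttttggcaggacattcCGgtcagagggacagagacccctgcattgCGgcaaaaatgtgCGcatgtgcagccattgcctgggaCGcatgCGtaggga
Snrpn upstream start, chr7:60140176-60140475: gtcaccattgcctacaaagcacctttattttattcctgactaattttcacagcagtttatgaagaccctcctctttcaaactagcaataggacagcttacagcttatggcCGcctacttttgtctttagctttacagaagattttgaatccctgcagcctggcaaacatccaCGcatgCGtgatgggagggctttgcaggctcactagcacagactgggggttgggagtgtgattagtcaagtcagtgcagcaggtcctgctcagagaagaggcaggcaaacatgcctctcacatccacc
The downstream window holds 7 CG pairs and the upstream window 3. The letters TGCCGC, the core of the motif bound by the imprint-protecting factor ZFP57, occur in the downstream window 1 time on either strand and in the upstream window 0 times. Over all members' RefSeq windows, 11 of 40 hold those letters (27.5%), where 11.6% of all 32817 windows of the same length do. Member windows had a median of 13.5 CG pairs and all windows a median of 7, so letters that themselves hold a CG are met under unequal base composition. A match describes the window and is not a binding site.

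Snhg14 RNA was read in parts of the unit, from its proximal to its distal end. No annotated transcript lies between 386 and 552 kb past the downstream Snrpn start. The gene (ENSMUSG00000100826.2, chr7:59307924-59975759, minus strand) had 144 TPM in replicate 1 and 159 TPM in replicate 2, rank 9 of 5694 long noncoding genes by mean level. Its 15 transcripts in the annotation begin between 29.4 and 687 kb past the downstream Snrpn start, and 14 of them had counts in at least 1 area. The proximal Snhg14-211 had 15.6 and 12.5 TPM. In the middle of the unit Snhg14-201, beginning at 309 kb, had 27.9 TPM in replicate 1 and 32.8 TPM in replicate 2.

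The distal end is the stretch that faces Ube3a. Snhg14-213, from 681 to 697 kb, had 24.9 TPM in replicate 1 and 17.0 TPM in replicate 2, on 1935 and 1362 counts. It shares 1803 exonic bases with Ube3a on the opposite strand. Whether strand was used in counting is not stated in the sources used here, so reads of that shared stretch cannot be assigned to either gene with certainty. Transcripts short of Ube3a were present as well: Snhg14-208 at 552 kb had 11.7 and 13.5 TPM, and Snhg14-210 at 594 kb had 9.69 and 11.0 TPM. The transcript that spans most of the 17 genes named Snord116 in the annotation, Snhg14-207, had 2.35 TPM in replicate 1 and 7.56 TPM in replicate 2. Many other snoRNA genes inside Snhg14 carry only a Gm number there and were not counted among them.

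**Figure D2:**
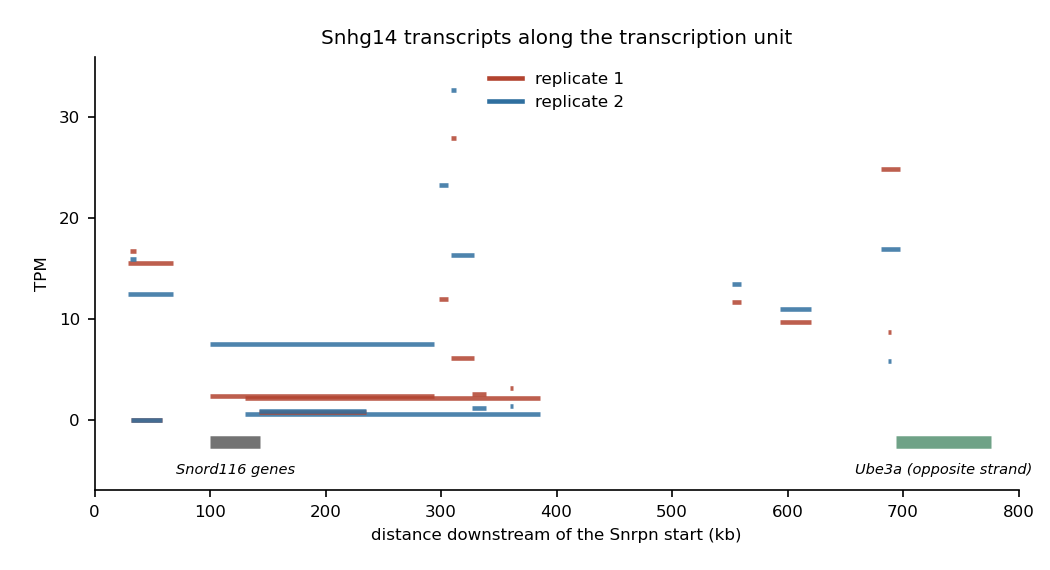
TPM of each Snhg14 transcript in replicate 1 and replicate 2, drawn as a bar from its first to its last base in kb downstream of the Snrpn start. Grey and green blocks below mark the genes named Snord116 (100 to 143 kb) and Ube3a (694 to 776 kb). Transcripts are seen from the proximal end to the stretch beside Ube3a, where Snhg14-213 reached 24.9 and 17.0 TPM. None is annotated between 386 and 552 kb.

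The Dlk1-Dio3 cluster on chromosome 12 was represented by its maternal noncoding RNAs, while its paternal coding genes were nearly silent. Meg3 (ENSMUSG00000021268.13, chr12:109541001-109571726, plus strand), a nuclear long noncoding RNA, had 325 TPM in replicate 1 and 278 TPM in replicate 2. It ranked 3 among long noncoding genes. Rian, the host of many snoRNAs, had 115 and 120 TPM and ranked 10. Mirg, a host of microRNAs, had 7.52 and 7.70 TPM.

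Dlk1, a Delta-like membrane protein of precursor cells, had 1 count in replicate 1 and 0 in replicate 2. Rtl1, a retrotransposon-derived gene known for its role in placenta, had 0.39 TPM in replicate 1 and 0.99 TPM in replicate 2. It was the low member with more reads in replicate 2, with 53 counts in replicate 1 and 138 in replicate 2. The Meg3 transcripts did not settle on a start: by TPM the start at 5390 bases held 29.9% in replicate 1 and 29.3% in replicate 2, and the first start 26.6% and 30.1%, whereas by counts the start at 4397 bases held 68.4% in replicate 1 and 71.8% in replicate 2. Short transcripts take larger shares by TPM than by counts in this gene: the start at 5390 bases held 3.75% and 3.60% of its counts.

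The cluster is also the source of microRNAs, short RNAs that pair with messages through their seed, bases 2 to 8. The RNA size range given in the labels excludes mature microRNAs, so none was measured. The annotation places 14 hairpins inside Mirg, 3 inside Rian and 1 inside Meg3, on the host's strand. A further 6 hairpins lie opposite Rtl1, and all 11 of their mature forms are exact complements of the Rtl1 transcript of 6358 bases. They carry 11 distinct seeds. One arm of 4 of these hairpins is shown, 5′ to 3′, plus strand, from RefSeq on GRCm38.p6, with the seed in capitals, since they are made opposite the low Rtl1 row:
miR-431-5p, chr12:109590459-109590479: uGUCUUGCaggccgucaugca
miR-433-3p, chr12:109591781-109591802: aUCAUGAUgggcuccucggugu
miR-127-3p, chr12:109592888-109592909: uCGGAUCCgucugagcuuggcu
miR-434-3p, chr12:109594565-109594586: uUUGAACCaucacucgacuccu
These sequences are complementary to Rtl1 by position alone, and their levels in layer 5 are not given by these data.

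At the Gnas cluster on chromosome 2 the transcript of the stimulatory G protein dominated. The cluster makes several proteins from separate starts: Nesp from the maternal copy, XL from the paternal copy, and Gs-alpha, which couples receptors to cyclic AMP, mostly from both. Gnas (ENSMUSG00000027523.15, chr2:174284320-174346744, plus strand) had 568 TPM in replicate 1 and 679 TPM in replicate 2. The Gs-alpha start gave 532 TPM in replicate 1 and 633 TPM in replicate 2, or 93.7% and 93.2% of the gene. The start 2436 bases upstream of it, in the methylated control region called exon 1A, gave 34.0 and 44.7 TPM. The 12 transcripts of the 3 starts farther upstream, which include those of Nesp and XL, were listed at 0 in both areas.

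Both Gnas starts in use are shown, 300 bases each on the plus strand from RefSeq on GRCm38.p6 with CG pairs in capitals.
Gnas Gs-alpha start, chr2:174329756-174330055: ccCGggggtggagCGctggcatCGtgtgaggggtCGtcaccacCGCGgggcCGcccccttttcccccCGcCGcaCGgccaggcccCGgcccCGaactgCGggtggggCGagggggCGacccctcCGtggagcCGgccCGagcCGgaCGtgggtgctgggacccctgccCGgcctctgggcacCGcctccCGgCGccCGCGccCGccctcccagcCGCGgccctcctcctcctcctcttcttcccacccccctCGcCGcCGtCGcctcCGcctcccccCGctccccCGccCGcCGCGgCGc
Gnas upstream start, chr2:174327499-174327798: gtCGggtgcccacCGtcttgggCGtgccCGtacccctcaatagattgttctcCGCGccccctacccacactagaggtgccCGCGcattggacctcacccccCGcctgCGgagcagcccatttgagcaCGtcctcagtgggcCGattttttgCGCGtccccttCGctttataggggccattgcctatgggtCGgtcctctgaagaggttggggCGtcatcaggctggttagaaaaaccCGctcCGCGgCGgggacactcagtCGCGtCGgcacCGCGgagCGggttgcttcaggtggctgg
The Gs-alpha window holds 40 CG pairs and the upstream window 27, against the median of 7 over all windows. The antisense gene Nespas had 0 TPM in replicate 1 and 0.12 TPM in replicate 2. Most Gnas transcripts share their later exons, so reads there are divided among starts by the estimate, and the share of the upstream start rests on that division.

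Most other members with several annotated starts had the same leading start in both areas, but not all rested on it. Of 20 members at 5 TPM or more in either area, 13 had at least 2 starts more than 500 bases apart. The leading starts of Rian and Snhg14 held at most 33.65% and 30.77% of TPM in either area. The Mirg leader changed, on few counts. Its start at 18139 bases led with 46.6% in replicate 1, and the start at 5217 bases with 38.1% in replicate 2. Inpp5f, a phosphoinositide phosphatase gene, has an internal start 76218 bases past the first that is paternally expressed in brain. That internal start gave 44.7 TPM in replicate 1 and 59.4 TPM in replicate 2, or 84.2% and 86.7% of the gene. A second internal start, at 77161 bases, gave 1.86 and 3.64 TPM. The first start, expressed from both copies, gave 6.40 and 5.50 TPM. Of this, the long coding transcript Inpp5f-201 held 5.86 TPM in replicate 1 and 2.76 TPM in replicate 2.

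Blcap, the gene that carries Nnat in its intron, used its second start for 100% of TPM in replicate 1 and 99.3% in replicate 2. Peg3, a zinc finger gene known for its role in maternal behaviour, used its upstream start for 99.3% and 100%. Herc3, a HECT-type ligase gene, used its second start for 81.8% and 85.6%. Trappc9, a vesicle trafficking gene, was split more evenly in both areas: its leading start held 55.3% in replicate 1 and 54.9% in replicate 2.

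For Mest, a hydrolase-like gene expressed from the paternal copy in most tissues, the start at 14503 bases gave 23.3 TPM in replicate 1 and 48.8 TPM in replicate 2. A further 32.3 and 42.2 TPM lay on a transcript that the reference annotation does not place. That transcript thus stood above the start at 14503 bases in replicate 1 and below it in replicate 2. Transcripts of Grb10, Plagl1 and Igf2 were singled out after their values were seen. The Grb10 starts 10712 and 11951 bases past the first, in the region used by the paternal copy in neurons, together gave 90.5% in replicate 1 and 87.9% in replicate 2. The upstream pair gave 9.48% and 8.31%, on 50.0 and 3.88 counts. All Plagl1 counts fell on transcripts of the start at 30187 bases in both areas.

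**Figure D3:**
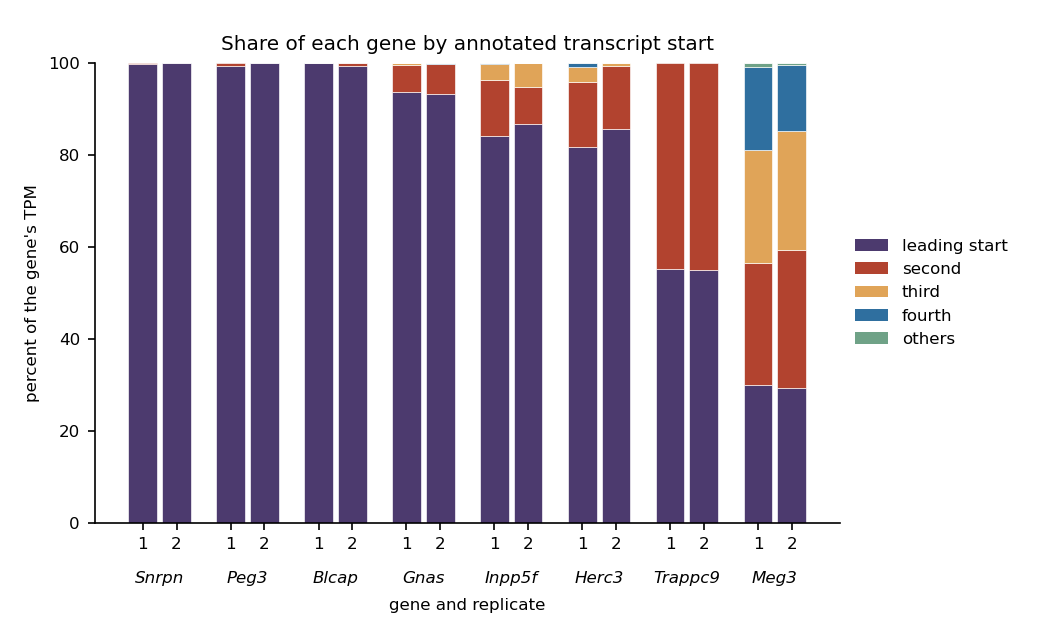
Percent of each gene's TPM by annotated transcript start, in replicate 1 (left bar) and replicate 2 (right bar), for 8 imprinted genes, with the leading start at the bottom and the others above in order of share. Snrpn, Peg3 and Blcap rest on a single start in both areas (99.3% or more), while Trappc9 is split at 55.3% and 54.9% and Meg3 over 4 starts.

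Paired genes at shared control regions stood at unequal levels. Peg3 (ENSMUSG00000002265.11, chr7:6703892-6730431, minus strand) and Usp29 are both paternally expressed from starts that lie back to back, 164 bases apart in RefSeq. Peg3 had 45.9 TPM in replicate 1 and 55.6 TPM in replicate 2, against 2.31 and 2.88 TPM for Usp29, a deubiquitinase-family gene. The window that holds both starts is shown on the minus strand, 5′ to 3′ for Peg3, from RefSeq on GRCm38.p6, with CG pairs in capitals.
Peg3 and Usp29 starts, chr7:6730370-6730669: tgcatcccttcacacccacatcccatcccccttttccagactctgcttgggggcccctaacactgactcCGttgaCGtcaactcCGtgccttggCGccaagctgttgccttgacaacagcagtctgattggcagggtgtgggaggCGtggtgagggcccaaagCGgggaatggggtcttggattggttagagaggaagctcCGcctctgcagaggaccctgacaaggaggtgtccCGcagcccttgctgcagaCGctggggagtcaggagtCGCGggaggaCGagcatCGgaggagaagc
It holds 13 CG pairs. The deposited Usp29 row rests on a transcript that starts far downstream of this window, so its TPM is that of the 3′ part of the gene.

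Sgce and Peg10 form another such pair, with gene starts 99 bases apart. Sgce, which encodes epsilon-sarcoglycan and in humans underlies myoclonus-dystonia, had 12.5 TPM in replicate 1 and 17.1 TPM in replicate 2. Peg10, a retrotransposon-derived gene of placenta, had 0.12 and 0.11 TPM, on 13 counts in each area. Asb4 of the same cluster had 0.64 TPM in replicate 1 and was listed at 0 in replicate 2. A start region shared by both directions thus gave a transcript above 10 TPM on one side and below 1 TPM on the other, in both areas.

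Nested pairs were unequal as well, in either direction. Nap1l5 (ENSMUSG00000055430.3, chr6:58905233-58907076, minus strand), an intronless nucleosome assembly gene inside a Herc3 intron, had 528 TPM in replicate 1 and 538 TPM in replicate 2, against 39.8 and 52.8 TPM for Herc3. The order was opposite at Blcap, where the host had 50.2 and 58.1 TPM. Nnat, the proteolipid gene inside it and a marker of developing neurons, had 3.32 TPM in replicate 1 and 1.09 TPM in replicate 2. Mest had 61.4 and 95.7 TPM, and its convergent neighbour Copg2, a coat protein gene, had 27.0 and 14.7 TPM. Mest and Copg2 share 912 exonic bases on opposite strands and moved in opposite directions between the areas, so reads of that stretch are uncertain.

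The solitary imprinted loci were mostly expressed. Impact, a regulator of translational control by GCN2, had 208 TPM in replicate 1 and 214 TPM in replicate 2. Zdbf2, a zinc finger gene, had 10.4 and 8.11 TPM. Grb10, a growth-factor receptor adaptor, had 4.96 and 3.14 TPM. These differed between the areas by less than 2-fold in TPM, and Impact hardly at all. By counts Grb10 differed more, with 387 in replicate 1 and 166 in replicate 2. Its ratio of counts per library total was 2.51 (exact interval 2.09 to 3.03, counting error only). The estimate gave Grb10 an effective length of 3629 bases in replicate 1 and 2377 bases in replicate 2. Plagl1, a zinc finger gene that restrains growth, had 3.05 TPM in replicate 1 and 1.21 TPM in replicate 2.

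The growth-control genes best known from the fetus were at the bottom of the list. H19, a noncoding RNA of the fetus, had 1 count in replicate 1 and 0 in replicate 2. Igf2, the fetal growth factor, had 1.84 TPM from 35 counts in replicate 1 and 0 counts in replicate 2. Of the replicate 1 counts 33.4 lay on Igf2-208, a noncoding fragment at the 3′ end, and 1.59 on a protein-coding transcript. Cdkn1c, an inhibitor of cell division, had 0.47 and 0.23 TPM.

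Igf2 in brain is known mainly from choroid plexus and meninges. Of the 6 choroid plexus and ependymal markers 5 had 0 counts in both areas, Ttr, the defining transcript of choroid plexus, among them, and their summed level was 1.62 TPM in replicate 1, against 0.05 TPM in replicate 2. Of the 6 meningeal fibroblast markers 4 had 0 counts in both, with sums of 0.35 and 0.07 TPM. The markers that were read did not all go one way. Col1a2 had 38 counts in replicate 1 and 0 in replicate 2, and Col1a1 had 1 and 9. Folr1, of the choroid plexus and ependymal list, had 23 and 1. The part of these cells in the Igf2 counts was not tested. Igf2r, the receptor that clears IGF2, had 2.77 TPM in replicate 1 and 2.56 TPM in replicate 2. Kcnq1ot1, the long noncoding RNA that silences the Kcnq1 cluster, had 2.40 and 1.96 TPM. Its level per length is low because its 4348 and 3671 counts are spread over a row of 84296 effective bases, and Kcnq1 itself had 0 counts in both areas.

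Most members with a mean of 1 TPM or more differed by less than 2-fold between the areas, as did most genes of similar level. Beyond 2-fold on the log2(TPM + 1) scale was 1 of the 26 members with a mean of 1 TPM or more, where 12.9% of 13489 named nuclear genes were. Among genes at 1 to 20 TPM the share was 18.1%, and 1 of 10 members lay there. Among genes at 20 TPM or more it was 2.74%, and 0 of 16 members did. The median log2 ratio of replicate 1 over replicate 2 was -0.10 for the members and -0.04 for all these genes. The median size of the ratio without its sign was 0.27 for the members and 0.35 for all genes. The members stand at higher levels than most genes, and at 20 TPM or more the medians were 0.24 for both.

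**Figure D4:**
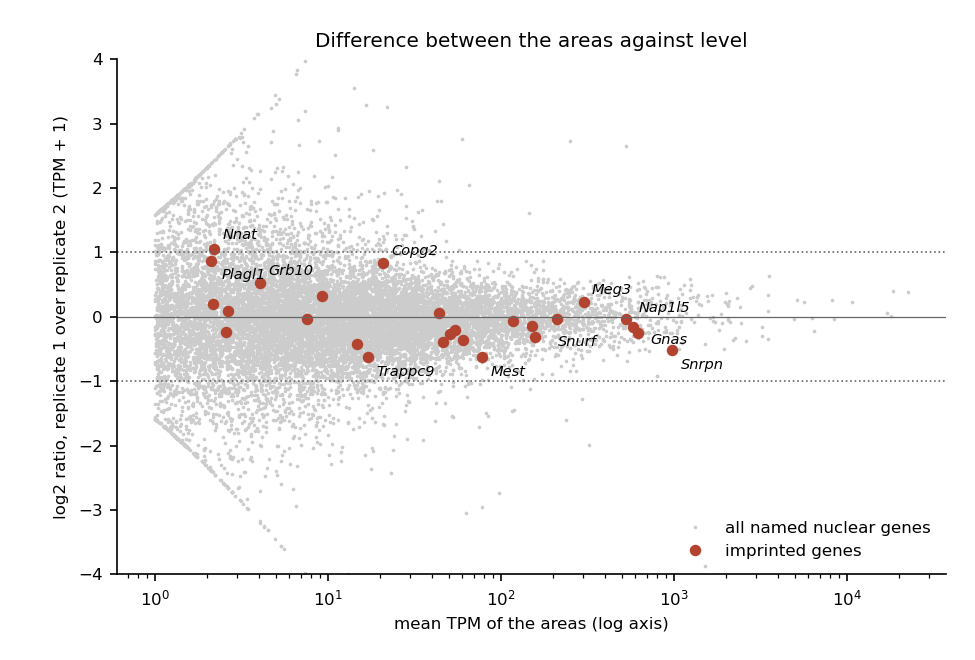
Log2 ratio of replicate 1 over replicate 2, on TPM + 1, against the mean TPM of the areas (log axis) for 13489 named nuclear genes (grey; 20 lie outside the drawn range) and the 26 imprinted genes with a mean of 1 TPM or more (red). Dotted lines mark 2-fold, and Nnat at 1.05 is the imprinted gene beyond them.

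Nnat was the member past that limit. It had 84 counts in replicate 1 and 30 in replicate 2, a ratio of counts per library total of 3.01 (exact 95% interval 1.97 to 4.74, counting error only). Its log2 ratio was 1.05 by TPM, and 0.91 with the posterior mean TPM, which is under 2-fold. Plagl1 followed at 0.87, from 275 counts in replicate 1 and 139 in replicate 2, and then Copg2 at 0.84. The lowest ratios were those of Mest at -0.63, Trappc9 at -0.63 and Snrpn at -0.52. In CPM Grb10 also lay beyond 2-fold, with a log2 ratio of 1.2, where it had 0.53 by TPM.

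By TPM, 9 of the 26 were higher in replicate 1 and 17 in replicate 2, where 6303 and 7171 of all 13489 genes were. By CPM the members divided into 12 and 14, and all genes into 6820 and 6669. Counting error alone did not cover most of these differences: for 21 of the 26 the interval of the count ratio left out 1, where 74.5% of all 13489 genes did the same. At 20 TPM or more this held for 14 of 16 members and 79.7% of all genes. Those intervals contain no variation between pieces of tissue, amplification or animals. The direction turned between TPM and CPM for 5 members, Rian, Snhg14, Impact, Nap1l5 and Zdbf2. For Zdbf2 the log2 ratio was 0.32 by TPM and -0.39 by CPM, because the estimate gave the gene an effective length of 2613 bases in replicate 1 and 4628 bases in replicate 2.

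Some of the lowest members were read in replicate 1 and barely or not in replicate 2, as were many other low genes. Under a mean of 1 TPM with a summed count of 20 or more, a limit set after the values were seen, were 7 members, and 4 of them had at most 1 count outside replicate 1. Of all 2538 such genes 20.0% did, and 12.5% had at most 1 count outside replicate 2, where no member did. Kcnk9, a leak potassium channel gene, had 31 counts in replicate 1 and 1 in replicate 2, a ratio of 33.4 (exact 95% interval 5.56 to 1360). Against a floor of 3 counts per library, Asb4 with 44 counts was at least 15.8-fold higher in replicate 1, Igf2 at least 12.6-fold and Magel2 at least 11.1-fold, taking the replicate 1 counts as read. With the counting error of both libraries, the exact 95% lower limits were 12.3, 9.68 and 8.52 in that order. Rtl1 went the other way, with a ratio of replicate 1 over replicate 2 of 0.41 (0.30 to 0.57). These are small numbers of reads in libraries amplified from few cells. In the same areas the microglial sum was 361 TPM in replicate 1, against 121 TPM in replicate 2, and 11 of the 12 markers were higher in replicate 1. Of 11 GABAergic markers with a mean of 1 TPM, 5 were higher in replicate 1 and 6 in replicate 2. That near balance hid wide differences of single markers in opposite directions. Log2 ratios of replicate 1 over replicate 2 were -3.87 for Sst, but 2.65 for Pvalb and 2.73 for Gad1. Cck, the highest of the list by mean TPM, had -0.10. Reln, which is not among the 4 highest, had -2.09. Summed erythrocyte markers reached 586.3 TPM in replicate 2 but only 16.01 TPM in the other area. The part of these cells in the differences was not tested.

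Many imprinted genes have a close relative that is not known as imprinted, and the pairs showed the imprinted gene above its relative in some families and below in others. Levels are compared per length, as TPM, and the pairs named here were picked after their values were seen. Snrpn stood 5.29 times above Snrpb, the relative used in most tissues, in replicate 1 and 6.78 times in replicate 2. Nap1l5 stood 3.88 and 3.27 times above Nap1l1. Gnas stood 19.5 and 36.3 times above Gnal, the olfactory and striatal relative. Ube3a stood 3.69 and 3.28 times above Ube3c.

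Other members were the lower of the pair. Copg1, the widely used coat protein gene, stood 4.55 times above Copg2 in replicate 1 and 9.34 times in replicate 2. Grb14 stood 5.22 and 9.53 times above Grb10, and the mannose 6-phosphate receptor gene M6pr 16.1 and 21.5 times above Igf2r. Cdkn1b stood 17.4 and 36.9 times above Cdkn1c. For the pair Ndn and Maged1 the levels were close, 142 and 158 TPM in replicate 1 and 176 and 178 TPM in replicate 2. Each of these orders was the same in both areas.

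**Figure D5:**
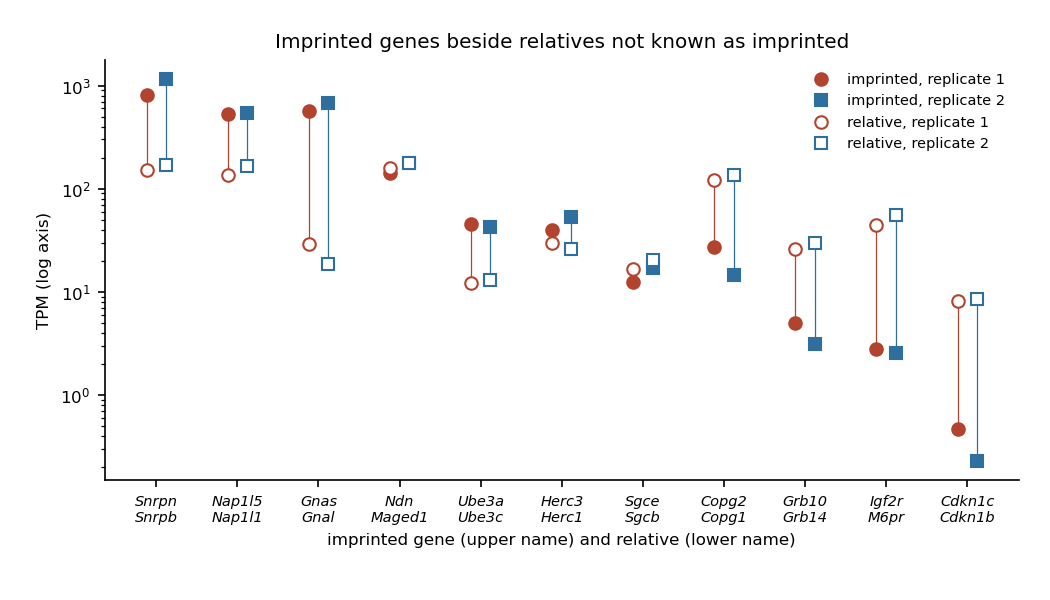
TPM (log axis) of 11 imprinted genes (filled) and a relative not known as imprinted (open), in replicate 1 (circles) and replicate 2 (squares). Snrpn, Nap1l5, Gnas and Ube3a lie above their relatives in both areas, while Copg2, Grb10, Igf2r and Cdkn1c lie below theirs.

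The machinery around the imprints was present in part. Of 24 factors that set or keep imprints, 18 reached 1 TPM in both areas, led by the chromatin remodeller Atrx at 81.9 TPM in replicate 1 and 90.1 TPM in replicate 2. Trim28, the corepressor that ZFP57 recruits, had 66.9 and 61.7 TPM. Arid4a had 43.4 and 38.2 TPM, and the deacetylase gene Hdac3 had 45.5 and 34.1 TPM. Zfp57 itself, the factor whose core motif was searched above, was chosen after its values were seen: it had 2.59 TPM from 92 counts in replicate 1 and 0.25 TPM from 9 counts in replicate 2.

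Of 14 genes of the insulin-like growth factor system, in which Igf2, Igf2r and Grb10 act, 10 reached 1 TPM in both areas. That was 71.4%, where 51.4% of all protein-coding genes did the same. The binding protein genes led, with Igfbp6 at 210.0 TPM in replicate 1, against 263 TPM in replicate 2, and Igfbp4 at 63.2 and 85.7 TPM. A second list of 54 other imprinted genes, known mostly from placenta or other organs, had 51 matched rows, of which 25 reached 1 TPM in both areas. That share, 49.0%, was near the 51.4% of all protein-coding genes. Cd81, a membrane tetraspanin gene, led it with 196 and 246 TPM, followed by Commd1 with 139 and 123 TPM. Of those 51 genes 13 had 0 counts in both areas. The main list was picked as genes of the brain, and the difference between 26 of 35 and 25 of 51 was not tested.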

How the data were processed

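RNA was measured in 2 laser-captured layer 5 areas (per the labels, by laser capture and Smart-seq). The deposited gene and transcript tables give, for each feature, an expected count and TPM made by the authors, with a posterior mean and interval bounds of TPM, and each transcript's percent of its gene. Assembly mm10 and annotation release M4 are given by text deposited with the tables; the program, aligner, trimming and strand setting are not given in the sources used here. Symbols and positions came from GENCODE M21 on GRCm38, matched by gene ID: 42462 of 43346 rows had a symbol. Rows named by a number (26248, holding 20.3 and 5 counts) were left out. Promoter windows were found in RefSeq for 27 of the 35 members.

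The members and lists were chosen with earlier results of these data known. All members are named by rule. Of each other list, up to 4 genes of the highest mean TPM were named. Reln, Kcnq1, Nespas, Zfp57 and several of the relatives are named outside that rule. CPM divides expected counts by the total over Ensembl genes, 24184332 in replicate 1 and 26032578 in replicate 2. Exact (Clopper-Pearson) 95% intervals of the ratio of counts cover counting error only, since reads carry no molecular identifiers. Ratios used a pseudocount of 1 TPM, with 2-fold as the limit at a mean of 1 TPM or more. With 1 group of 2 libraries no p-value was computed. Starts over 500 bases apart were taken as separate. Chi-square between the libraries was 68.5 per degree of freedom (14073 genes, summed count 50 or more), so they were not taken as copies. The ratio step was tested on simulated data. Tools were Python 3.11.15 with pandas 2.3.3, scipy 1.17.1, numpy 2.4.6 and, for figures, matplotlib 3.10.9; edgeR gave TMM factors from rounded expected counts. Alternatives were CPM, TPM over nuclear genes alone, posterior mean TPM, TMM factors, a pseudocount of 0.1, other minimums, shares by counts, and leaving out each library.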

Additional observations from a re-analysis of the deposited data

How the results depend on the processing

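The count of members at the detection level was 26, and 20 to 28 under the alternatives tried. Median levels depend on the unit: the members' median over both areas was 14.8 TPM, against 38.3 in CPM and 19.2 in TPM over nuclear genes alone, and 12.5 to 14.7 TPM with either library left out. For paternally expressed members it was 9.26 TPM, against 28.1 in CPM and 12.0 in TPM over nuclear genes; for maternally expressed members 5.14 TPM, against 13.5, 6.65 and, with the posterior mean TPM, 5.74. The count beyond 2-fold was 1 and rests on few reads. It was 2 with a pseudocount of 0.1 (Nnat and Plagl1), 2 in CPM and 2 with TMM factors (Grb10 and Nnat in each), 3 with no minimum (Igf2, Kcnk9 and Nnat), 0 with the posterior mean TPM and 0 for members averaging 5 TPM. The cause was not tested for the posterior mean; at 5 TPM Nnat is no longer counted, and the members' median log2 ratio was -0.18. By counts in place of TPM, the leading start held 95.1% of Gnas and 80.2% of Inpp5f, against 93.4% and 85.4% by TPM, means over the areas. Of 12 genes other than Snrpn, Gnas and Inpp5f, the share of the leading start moved beyond the SD between areas for 10. The leader by mean TPM was not the leader by counts for Meg3, Rian, Mirg and Snhg14. By counts the first Snhg14 start held 33.1% in replicate 1 and 31.2% in replicate 2. The Rian start at 42201 bases held 41.9% and 39.7%. No ratio reversed its direction under these alternatives, apart from the 5 members named above whose ratios differ in sign between TPM and CPM. No paired analysis was possible because there is 1 group, so that replicate numbers pair nothing. Depth limits the 9 members not at 1 TPM in both areas, each with at most 138 counts per library.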
